A study of Mus musculus with 24 samples.

Results

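Apical sphingosine-1-phosphate (S1P) was compared with vehicle in cultured endothelial cells from small vessels of the mouse brain, named MBMECs in the labels. The comparison was chosen by treatment label alone and holds 8 of the 24 libraries in the series: 4 with 50 nM S1P in the apical (blood-facing) compartment and 4 with vehicle. All 8 came from wild-type C57B/6J mice, from microvessels of cortex and midbrain, with 12 mice for each replicate. After 48 h of puromycin against other cell types, the cells were seeded on transwell inserts, treated 48 h later and lysed after 24 h, with 3 inserts combined for each sample and 100 ng of RNA for each stranded mRNA library. Both groups received MCDB131 medium with fatty-acid-free albumin, and the side on which the vehicle was given is not stated in the labels. The 4 libraries of the same cells with 50 nM S1P in the basal compartment were used for a comparison at the same dose and time. The series' design text calls apical S1P barrier-tightening and basal S1P barrier-opening. The design text gives 4 sets of cells, but no label says which library came from which set, so the p-values below measure the spread between libraries.

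S1P is a lipid mediator that circulates in blood and acts through G protein-coupled receptors. In endothelium the receptor S1P1 couples to Gi and Rac and is known to support junctions, while S1P2 couples to G12/13 and is known to loosen them. The cells make S1P with sphingosine kinases, release it through the transporter Spns2 and degrade it with the lyase Sgpl1 and with phosphatases. Pericytes and smooth muscle cells, together called mural cells, and perivascular fibroblasts sit on the same vessels and can be carried into a culture of brain endothelium.

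The 8 libraries held 4.49 to 4.66 M normalized counts each (counts divided by 1 factor for each library and rounded, as deposited), with 1009 to 1746 of 18091 genes at 0. Steps in the values gave an estimated 4.57 to 5.54 M reads on genes with vehicle and 4.20 to 4.96 M with apical S1P, and in each of the 4 replicate numbers the apical library was the shallower one. Xist, the non-coding RNA that silences an X chromosome in females, had 1, 2251, 1063 and 190 normalized counts in replicates 1 to 4 of vehicle and 0, 2555, 525 and 1417 in those of apical S1P. Replicates 1 and 2 were alike in both groups, whereas apical S1P replicates 3 and 4 did not match the other wild-type libraries of their own numbers. Apical replicate 4 was near basal S1P replicate 3 (1432), and apical replicate 3 was near basal S1P replicate 2 (552), itself below the other replicates 2 (1382 to 2555). Differences between sets of cells and the treatment therefore cannot be told apart in replicates 3 and 4. For many gene lists, results are also given below by replicate number or in 2 other comparisons. These are apical replicates 1 and 2 against all 4 vehicle libraries, and replicates 1 and 2 of both groups. The former keeps vehicle replicates 3 and 4, so differences between replicate numbers and the treatment cannot be told apart in it, for any list.

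**Figure D1:**
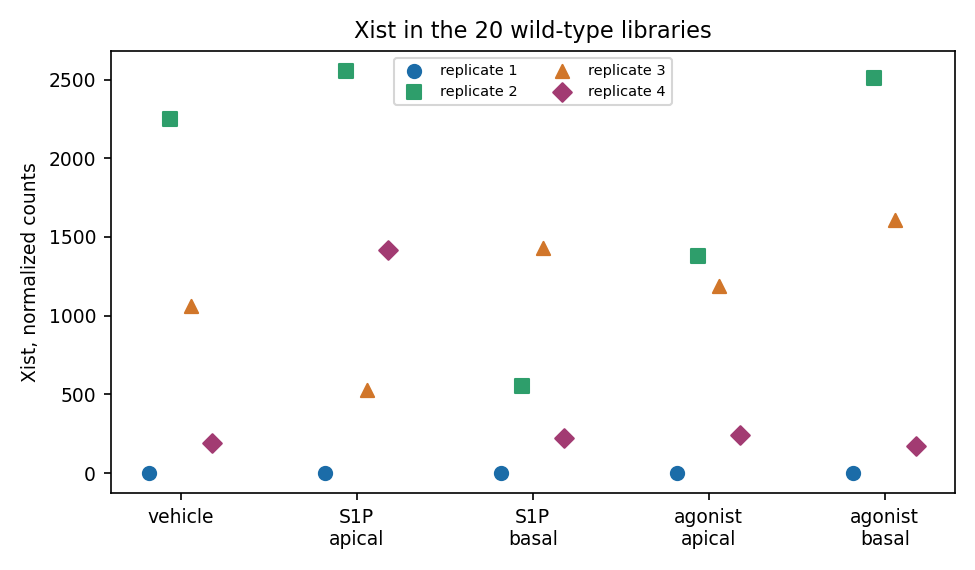
Xist in normalized counts (y axis) in the 5 wild-type groups (x axis), with 1 point for each library and colours and shapes for replicate numbers 1 to 4. Apical S1P replicate 3 at 525 and replicate 4 at 1417 lie away from the other libraries of their numbers, which are at 1063 to 1608 and at 173 to 244, and basal S1P replicate 2 at 552 lies away from the other replicates 2.

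No gene differed between apical S1P and vehicle past the threshold, an adjusted p under 0.05 in limma over 12249 genes with a mean of at least 10 normalized counts in the 20 wild-type libraries (0% called; smallest adjusted p = 1). At an unadjusted p under 0.05 there were 122 genes (0.996%), 49 with a higher mean with apical S1P (0.4%) and 73 with a lower one (0.596%). That share was below the 0.05 that this cutoff passes on average where no gene differs. The fit had no block for the replicate number, so spread between replicate numbers is part of its SEs and p-values. The count past the threshold was also 0 in each of the 30 alternatives run. With the replicate number as a block, 544 genes (4.44%) had an unadjusted p under 0.05 in limma, and the smallest adjusted p was 0.815. With the block on only the 8 libraries compared, these were 826 genes (6.74%) and 0.635. With apical S1P replicates 3 and 4 left out, 92 genes had an unadjusted p under 0.05, and 45 did when replicates 3 and 4 of every group were left out. The standard error (SE) of the log2 difference was 0.13 at the median of the tested genes.

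The 4 apical S1P libraries lay above all 4 vehicle libraries in 74 genes (0.604% of those tested) and below them in 88 (0.718%). The difference had the same sign in all 4 replicate numbers for 1295 genes with more RNA (10.6%) and 925 with less (7.55%) under apical S1P. Among genes with separate groups, the 12 in each direction with the smallest p are described next. Separation was the rule by which they were picked, so it is not evidence of a difference. How many genes would separate by chance was not worked out here. None of the 24 passed the threshold (limma adjusted p = 1 for each). Log2 differences here and below were taken after adding 1 to each value, the log2(value + 1) scale, and so are too small for low genes.

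Of the 12 genes above vehicle in all 4 libraries, the one with the smallest p was Acap1 (ENSMUSG00000001588, chromosome 11 from 69881567 to 69895539, minus strand), a GTPase-activating protein for Arf6 in endosome recycling. Its 4 vehicle libraries held 10, 13, 12 and 8 normalized counts and those with apical S1P 20, 18, 22 and 23, in the order of replicates 1 to 4 used throughout. Each apical library held more than every vehicle library, but both groups were close to the lower limit of the genes tested. The log2 difference was 0.90 ± 0.29 (SE, n = 4 each, limma unadjusted p = 0.00612). Sptssa, a small subunit of the serine palmitoyltransferase that begins sphingolipid synthesis, was at 226, 233, 239 and 246 with vehicle and at 252, 276, 315 and 292 with apical S1P, a log2 difference of 0.26 ± 0.09. All 4 vehicle values lay within 20 counts of each other, and the apical values began just above them. Rab11a, the small GTPase of recycling endosomes, was at 495, 506, 512 and 527 with vehicle and at 538, 549, 616 and 579 with apical S1P (0.16 ± 0.07). Its groups were separated by 11 counts, and apical replicate 3 was the highest.

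The other 9 genes of this direction had log2 differences from 0.21 to 0.73. Dpm3, a subunit of the dolichol-phosphate mannose synthase of the endoplasmic reticulum, was at 61, 60, 59 and 64 normalized counts with vehicle and at 76, 73, 93 and 75 with apical S1P (0.37 ± 0.14). Its vehicle libraries were tight and apical replicate 3 lay far above the other 3. Ptrh2 and Acaa2, which encode a mitochondrial peptidyl-tRNA hydrolase and a thiolase of mitochondrial fatty acid oxidation, had log2 differences of 0.21 ± 0.08 and 0.23 ± 0.10. Ppil1, a spliceosomal prolyl isomerase, had 0.30 ± 0.11, Rfc4, a subunit of the clamp loader of DNA replication, 0.33 ± 0.13, and Znrd1, a subunit of RNA polymerase I, 0.26 ± 0.11. Mycbp, which encodes a MYC-binding protein, had 0.31 ± 0.12 and AI413582, a gene with no role stated here, 0.34 ± 0.13. Gm11478, at 0.73 ± 0.29, is annotated as a processed pseudogene, so its reads may belong to a near-identical gene and its value is uncertain.

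Of the 12 genes below vehicle in all 4 libraries, Fbxo33 (ENSMUSG00000035329, chromosome 12 from 59200655 to 59219725, minus strand), an F-box subunit of a ubiquitin ligase, had the smallest p of all genes. It was at 165, 150, 157 and 177 normalized counts with vehicle and at 143, 118, 126 and 124 with apical S1P. Every apical library lay under the lowest vehicle library, and replicate 1 came closest. The log2 difference was -0.34 ± 0.10 (SE, limma unadjusted p = 0.00274). Zbtb43, a zinc finger transcription factor, was at 265, 276, 257 and 286 with vehicle and at 214, 226, 184 and 205 with apical S1P, a log2 difference of -0.39 ± 0.13. Its 4 replicate numbers gave differences from -0.48 to -0.29, and their shared sign follows from the choice of genes with separate groups. Fzd9, a Frizzled receptor for Wnt ligands, was at 26, 28, 50 and 45 with vehicle and at 25, 16, 14 and 23 with apical S1P (-0.88 ± 0.30). In replicate 1 this difference was a single count, and the largest was in replicate 3.

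Gpt2, the mitochondrial alanine transaminase, was at 75, 70, 79 and 72 normalized counts with vehicle and at 62, 57, 48 and 59 with apical S1P (-0.39 ± 0.13). The vehicle values were tight and the lowest apical value was again in replicate 3. Arl4c, an Arf-like GTPase, had a log2 difference of -0.36 ± 0.14, Dbndd2, a dysbindin-domain protein, of -0.60 ± 0.21, and Btg3, an antiproliferative protein of the BTG/Tob family, of -0.41 ± 0.16. Zranb1, a deubiquitinase, had -0.25 ± 0.09, Arsk, a lysosomal sulfatase, -0.29 ± 0.11, and Mettl27, a methyltransferase-like protein, -0.24 ± 0.09. Pcdhgb7, a gamma protocadherin, had -0.34 ± 0.14, but genes of that cluster share their last exons, so its value is uncertain. Gm45053, an annotated transcript of unproven status, held 11 to 17 counts with vehicle and 2 to 9 with apical S1P.

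**Figure D2:**
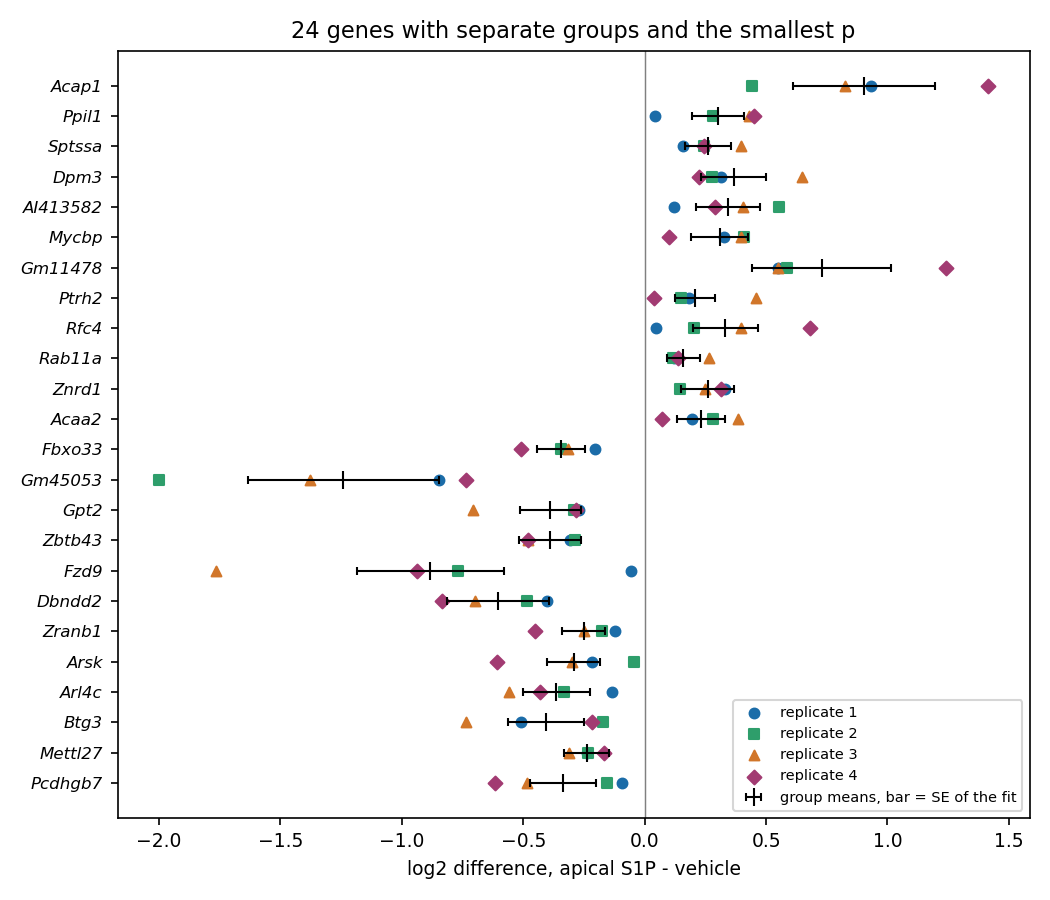
Log2 differences between apical S1P and vehicle (x axis) for the 12 higher and 12 lower genes with separate groups and the smallest p (y axis); coloured points are replicate numbers 1 to 4 and black bars the difference of group means with its SE. Every point lies on the side of its group mean, which the choice of genes with separate groups requires. The widest scatter over replicate numbers is in Gm45053 and Fzd9.

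Against the same dose on the basal side, 3 genes passed the threshold (limma over 12249 genes, 0.0245% called), all with more RNA on the apical side, and 491 had an unadjusted p under 0.05 (4.01%). A single gene passed when apical replicate 2 or 3 or basal replicate 1 or 3 was left out, and 23 did with both marker sums as covariates, 47.8% of them higher on the apical side. In these 3 genes the apical S1P libraries lay near vehicle. Ackr4, a scavenging receptor for chemokines, was at 152, 153, 92 and 129 with vehicle, at 150, 181, 136 and 93 with apical S1P and at 52, 61, 38 and 55 with basal S1P. All apical and vehicle libraries lay above all basal libraries. The log2 difference of apical S1P was 1.41 ± 0.21 from basal S1P and 0.08 ± 0.21 from vehicle. The transcription factor Atoh8 was at 301, 236, 248 and 232 with vehicle, at 279, 279, 337 and 255 with apical S1P and at 140, 128, 137 and 109 with basal S1P (apical minus vehicle 0.18 ± 0.13). The membrane carboxypeptidase Cpm was at 545 to 614, 480 to 587 and 356 to 434 in the same order (-0.09 ± 0.07). None of the 24 genes described above passed the threshold against basal S1P. Gpt2 had the smallest p of them, with 81, 79, 96 and 101 counts under basal S1P and an apical minus basal difference of -0.65 ± 0.13 (limma unadjusted p = 6.35e-05), in a contrast that uses the same apical libraries.

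Of the 5 S1P receptor genes 4 are described, and S1pr5 was not analysed here. S1pr1, which encodes the main endothelial receptor, was at 1212, 1282, 1602 and 1675 normalized counts with vehicle and at 1332, 1291, 1473 and 1685 with apical S1P. The groups overlapped, with replicates 3 and 4 above 1 and 2 in both, and the log2 difference was 0.01 ± 0.13. S1pr2 was at 75, 63, 101 and 60 with vehicle and at 70, 56, 84 and 101 with apical S1P (0.05 ± 0.20). S1pr4 was at 128, 130, 189 and 153 with vehicle and at 150, 113, 168 and 190 with apical S1P (0.04 ± 0.16). In both genes the groups overlapped widely, and S1pr2 had its highest apical value in replicate 4. S1pr3, a receptor also found on mural cells, was at 79, 49, 30 and 9 with vehicle and at 48, 51, 43 and 21 with apical S1P (0.25 ± 0.88). The vehicle values spanned a range that held all apical ones, and their order over the 4 vehicle libraries was that of the pericyte marker sums given below. The sign of each of these 4 differences changed under some settings listed in the closing part, and 0 of the 4 passed the threshold under any of them.

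Among 13 tested genes of S1P synthesis, breakdown and export, 9 had a higher mean with apical S1P and none passed the threshold (6 of 13 higher without apical replicates 3 and 4, 7 of 13 in replicates 1 and 2 of both groups). Their median log2 difference was 0.03, beside -0.00066 over all genes tested, of which 6100 of 12249 (49.8%) were higher. Spns2, the exporter of S1P, was the member with separate groups, at 870, 863, 831 and 853 normalized counts with vehicle and at 884, 900, 1156 and 920 with apical S1P. Replicates 1, 2 and 4 lay close above vehicle and replicate 3 stood far above, which gave 0.17 ± 0.12. Of 24 genes of G proteins, arrestins and their downstream signalling 15 were higher (median 0.04, 0 called). Without apical replicates 3 and 4 this was 10 of 24, and in replicates 1 and 2 of both groups 15 of 24. Pak1, a kinase activated by Rac, was at 112, 82, 110 and 91 with vehicle and at 105, 121, 124 and 136 with apical S1P (0.30 ± 0.15). Its groups overlapped because replicate 1 went the other way.

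Markers of mural cells and fibroblasts differed widely between the replicate numbers of each group. The summed pericyte markers (13 genes) came to 3844, 3137, 1974 and 1121 normalized counts with vehicle and 3808, 3146, 2684 and 1637 with apical S1P. Replicates 1 and 2 were nearly equal in both groups, and the apical library was the higher one in replicates 3 and 4. The transcription factor Ebf1, which did not follow the other members, held 754 of the 1121 counts in vehicle replicate 4. Without it, a choice made after seeing the values, the sums of the other 12 genes were 3141, 2484, 1417 and 367 with vehicle and 3134, 2467, 2081 and 1082 with apical S1P. The summed smooth muscle markers (12 genes) were at 3947, 4081, 3341 and 2796 with vehicle and at 4293, 4193, 4572 and 3621 with apical S1P. The apical sum was higher in all 4 numbers, most in replicate 3. Of these sums Smtn, the most abundant member, held 1362, 1474, 1415 and 1435 with vehicle and 1412, 1543, 1337 and 1528 with apical S1P. Its log2 difference was 0.03 ± 0.06, beside a list median of 0.58. The summed fibroblast markers (13 genes) were at 1466, 1618, 556 and 515 with vehicle and at 1743, 1609, 1336 and 452 with apical S1P. Here replicate 3 alone stood apart, with an apical to vehicle ratio of 2.40 beside 0.878 to 1.19 in the other 3 numbers. In bulk RNA, fewer cells of a type and less RNA per cell cannot be told apart.

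**Figure D3:**
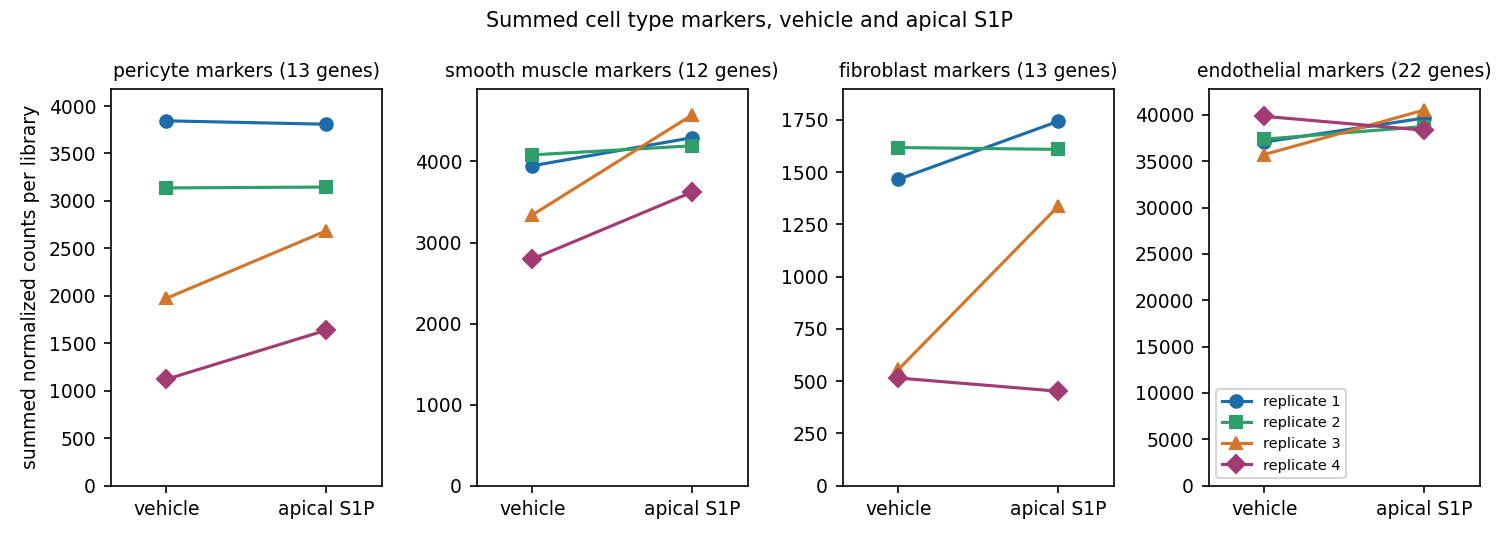
Summed normalized counts (y axis, from 0) of pericyte, smooth muscle, fibroblast and endothelial markers in vehicle and apical S1P libraries, with 1 line for each replicate number. The lines of replicates 1 and 2 are nearly flat for pericyte markers, replicates 3 and 4 rise from 1974 and 1121 to 2684 and 1637, and the endothelial sums stay between 35733 and 40523.

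By gene, 8 of 10 tested pericyte markers, 11 of 11 smooth muscle markers and 8 of 10 fibroblast markers had a higher mean with apical S1P, and none passed the threshold. The median log2 differences were 0.45, 0.58 and 0.43. Within replicates 1 to 4 the pericyte median was 0.0055, -0.02, 0.24 and 1.65. In replicates 1 and 2 alone the medians were 0.02, 0.10 and 0.20, with 5 of 10, 10 of 11 and 8 of 10 members higher. Without vehicle replicate 4, the library with the fewest pericyte markers, the pericyte median was -0.21. Without apical S1P replicates 3 and 4 the medians were 0.94, 1.06 and 1.13, in a comparison that keeps vehicle replicates 3 and 4, the vehicle libraries lowest in these markers. With the mural sum, the fibroblast sum or both as covariates, 0 genes passed the threshold and 199, 374 and 310 had an unadjusted p under 0.05. Beyond that, the part of mural and fibroblast content in the differences described here was not tested.

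Cspg4, the NG2 proteoglycan of pericytes, was at 751, 541, 356 and 67 normalized counts with vehicle and at 729, 540, 528 and 283 with apical S1P. The values of replicates 1 and 2 differed by at most 22 counts between the groups, and the log2 difference of 0.65 ± 0.86 lay in replicates 3 and 4. The difference of Notch3 (0.48 ± 0.93) also lay in replicates 3 and 4, with 0.36 and 1.75. That of Pdgfrb (0.43 ± 0.79), a receptor that pericytes need, lay in replicate 4 (1.79), with 0.11 in replicate 3. Acta2, smooth muscle actin, was at 670, 694, 672 and 480 with vehicle and at 742, 718, 936 and 741 with apical S1P, separate groups with a difference of 0.32 ± 0.21. Tagln, another actin-binding smooth muscle protein, was at 474, 594, 518 and 500 with vehicle and at 584, 623, 829 and 620 with apical S1P (0.34 ± 0.18). Both were highest in apical replicate 3, and Tagln overlapped by a single library on each side. Col1a1, a fibroblast collagen, was at 167, 260, 12 and 16 with vehicle and at 264, 248, 264 and 16 with apical S1P (1.23 ± 1.53). The step from 12 to 264 in replicate 3 was absent from the other 3 numbers. Col3a1 showed the same step, from 70 to 299, while Fbln1 did not, at 186 and 177.

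Markers of brain cells outside the vessel wall were low. Microglia and macrophage markers summed to 5 to 86 normalized counts with vehicle and 12 to 101 with apical S1P, astrocyte markers to 65 to 126 and 75 to 83, neuron markers to 120 to 213 and 80 to 136, and oligodendrocyte markers to 5 to 11 and 7 to 15. Most of the neuron sum was Stmn2, at 116 to 203 with vehicle and 75 to 126 with apical S1P. Choroid plexus markers summed to 404 to 445 and 370 to 451, of which Clic6 alone held 336 to 426 and 350 to 389. The defining markers P2ry12, Slc1a2, Snap25, Syt1, Olig1, Olig2, Sox10, Mog and Mag and all 5 erythroid markers were not analysed here, and no marker that was analysed was at 0 in all 8 libraries. The endothelial sum of 22 markers was at 35733 to 39849 with vehicle and at 38355 to 40523 with apical S1P.

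Of the 22 endothelial markers 16 were higher with apical S1P (median log2 difference 0.06, 0 called). Pecam1, an adhesion molecule of endothelial borders, was at 2358, 2433, 2516 and 2721 with vehicle and at 2586, 2567, 2715 and 2755 with apical S1P (0.08 ± 0.07). Cdh5, which encodes VE-cadherin, was at 2719 ± 164 with vehicle and at 2865 ± 138 with apical S1P (SD, n = 4 each). In both genes every apical library was above the vehicle library of its number, by less than the range of vehicle. Sox17, a transcription factor of arterial endothelium, was at 689, 721, 746 and 772 with vehicle and at 637, 677, 573 and 726 with apical S1P (-0.17 ± 0.08, limma unadjusted p = 0.0396). It was lower within every number, but the groups overlapped.

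Of 16 tight junction genes 8 were higher and 8 lower (median -0.0035), and of 15 adherens junction genes 10 were higher (median 0.04), with 0 called in either. Ocln, which encodes occludin, was the junction gene with separate groups, at 1070, 1027, 966 and 1054 with vehicle and at 1121, 1094, 1136 and 1075 with apical S1P. The gap between the groups was 5 counts and the log2 difference 0.11 ± 0.06. Esam, a junctional adhesion protein, was higher within all 4 numbers and had 0.10 ± 0.06. Among the caveolar and transcytosis genes 13 of 14 were higher (median 0.06, 0 called), as in Ehd4, a membrane-remodelling ATPase (0.11 ± 0.06). Without apical S1P replicates 3 and 4 the count was 8 of 14, and in replicates 1 and 2 of both groups 12 of 14.

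Of 22 barrier transporters 9 were higher and 13 lower, with a median of -0.04 and 0 called. The medians within replicates 1 to 4 were 0.07, -0.02, 0.07 and -0.23. Without apical S1P replicates 3 and 4, 12 of 22 were higher, and in replicates 1 and 2 of both groups 14 of 22. Slc19a3, a thiamine transporter, was at 83, 76, 79 and 112 with vehicle and at 75, 60, 75 and 61 with apical S1P (-0.36 ± 0.16, limma unadjusted p = 0.0355). Its groups were separate by 1 count, and the widest step was in replicate 4. Mfsd2a, the lipid transporter that restrains transcytosis at the blood-brain barrier, was at 36, 30, 52 and 53 with vehicle and at 28, 23, 35 and 39 with apical S1P (-0.43 ± 0.27). It was lower within all 4 numbers, but replicates 1 and 2 of vehicle overlapped the apical range.

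Of 38 tested interferon response genes, which cells switch on against viruses, 33 had lower means with apical S1P (median log2 difference -0.18, 0 called). The medians within replicates 1 to 4 were -0.08, -0.05, -0.14 and -0.31. With replicates 3 and 4 of both groups left out 28 of 38 were lower with a median of -0.08, and without apical S1P replicates 3 and 4 alone 26 of 38, also with -0.08. Compared with basal S1P, 26 of 38 were higher on the apical side, with a median of 0.05. This does not place basal S1P above vehicle, and basal S1P against vehicle was not counted over this list. In the members Rsad2, Irf7 and Irf9, described below, means with basal S1P were also under vehicle. They were 158.25 against 206.25, 123.5 against 151.75 and 323.5 against 352 normalized counts.

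Interferon acts through factors that bind the interferon-stimulated response element, a repeat of GAAA. The motif GAAANNGAAA was searched on both strands of promoters from RefSeq (build GRCm38.p6, 250 bases before to 50 after the gene start). It was in 18 of the 28 interferon genes with a promoter entry (64.286%), in 350 of 9508 tested genes (3.681%) and in 1131 of 32851 promoters (3.443%). The first matching site of the 6 members with a match and the smallest p is printed below, 5′ to 3′ in the orientation of the motif, which is in capitals, to show the element that 18 of these genes hold. The other 10 genes with a promoter entry had no match in this window. These are matches of letters, and binding was not measured.
Rsad2, chr12:26456553-26456582, plus strand: tctgttttctGAAAATGAAAgttggaccag
Igtp, chr11:58199512-58199541, plus strand: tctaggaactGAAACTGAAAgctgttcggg
Bst2, chr8:71537583-71537612, minus strand: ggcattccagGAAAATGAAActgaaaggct
Ifit1, chr19:34640775-34640804, minus strand: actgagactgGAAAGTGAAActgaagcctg
Ifit3, chr19:34583363-34583392, minus strand: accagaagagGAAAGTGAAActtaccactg
Ddx58, chr4:40239804-40239833, plus strand: ctggccatagGAAATCGAAActgcctcagg

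Genes that carry the motif did not share 1 size of difference: the 6 shown ranged from -1.11 in Rsad2 to 0.10 in Bst2. Rsad2, which encodes the antiviral enzyme viperin, was at 194, 183, 143 and 305 with vehicle and at 184, 130, 36 and 81 with apical S1P (-1.11 ± 0.59). It was lower within all 4 numbers, least in replicate 1 and most in replicates 3 and 4. Bst2, the tetherin that holds budding virus at the membrane, was at 294, 330, 363 and 348 with vehicle and at 325, 353, 373 and 382 with apical S1P, higher within every number. Irf7 and Igtp were members with separate groups. Irf7, a transcription factor that amplifies the response, was at 142, 131, 138 and 196 with vehicle and at 117, 114, 99 and 121 with apical S1P (-0.41 ± 0.27). Igtp, an immunity-related GTPase, was at 216, 216, 211 and 258 with vehicle and at 184, 205, 197 and 209 with apical S1P (-0.18 ± 0.13). In both genes vehicle replicate 4 was the highest of the 8 libraries. Irf9, a DNA-binding factor of the response, had -0.15 ± 0.10. Igtp was chosen after its values were seen.

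Class I antigen presentation, which interferon also induces, was higher in 9 of 15 genes (median 0.02, 0 called), in 3 of 15 without apical replicates 3 and 4 and in 12 of 15 in replicates 1 and 2 of both groups. The chaperone Pdia3 had 0.13 ± 0.07 and the peptide-trimming protease Erap1 -0.12 ± 0.07. The leukocyte adhesion, chemokine and NF-kB feedback genes were lower in 14 of 20 cases (median -0.08, 0 called), but the medians within replicates 1 to 4 were 0, -0.0068, -0.53 and 0.16. In replicate 3 only 2 of the 20 were higher, and in replicate 4 it was 16 of 20. Without apical replicates 3 and 4, 15 of 20 were lower, and in replicates 1 and 2 of both groups 9 of 20.

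Immediate early genes, which growth and stress signals switch on within minutes, were lower with apical S1P for 16 of 18 members (median -0.14, 0 called). Within replicates 1 to 4 the medians were 0.05, 0.02, -0.42 and -0.24, and in replicates 1 and 2 of both groups 11 of 18 were higher. Without apical S1P replicates 3 and 4 alone, all 18 were lower (median -0.15). Egr3, a zinc finger factor of this class, was at 232, 206, 149 and 402 with vehicle and at 258, 184, 83 and 110 with apical S1P (-0.68 ± 0.52). Vehicle replicate 4 held the highest value of the 8 and the apical replicate of that number the second lowest. The antiproliferative gene Btg2 had -0.13 ± 0.08 and Ier2 -0.12 ± 0.09. Of 15 shear and vasoactive genes 10 were higher (median 0.06, 0 called), 5 without apical replicates 3 and 4 and 10 in replicates 1 and 2 of both groups. Klf2, a factor that endothelium induces under flow, had the same high value in vehicle replicate 4: 219, 222, 240 and 406 with vehicle and 206, 223, 129 and 177 with apical S1P (-0.54 ± 0.31). Replicates 1 and 2 of Klf2 differed by at most 13 counts. Piezo1, a mechanically gated channel, was at 3004 ± 81.1 with vehicle and at 3137 ± 42.3 with apical S1P (SD, n = 4 each).

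**Figure D4:**
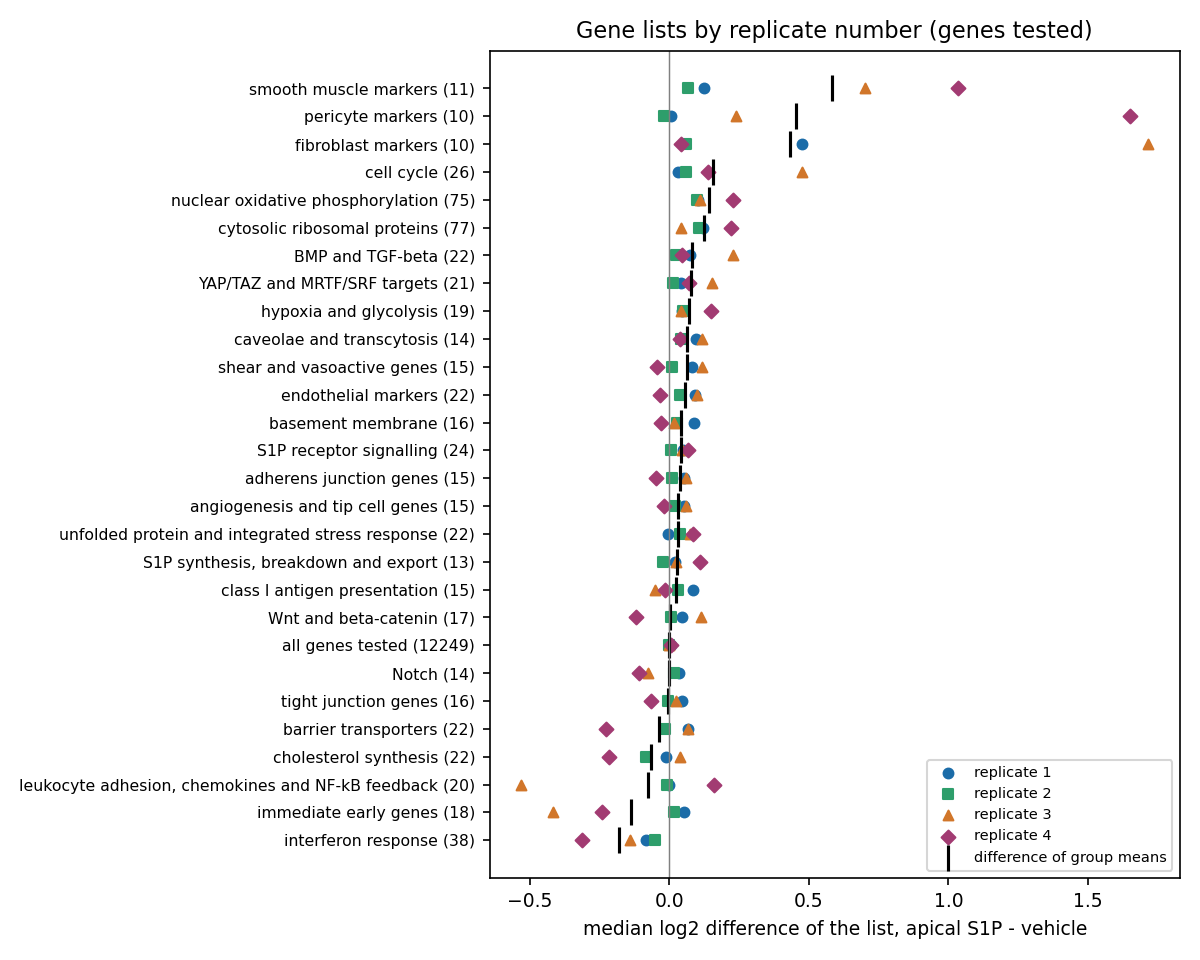
Median log2 difference between apical S1P and vehicle (x axis) of each gene list with at least 10 tested genes (y axis, number of genes in brackets); coloured points are replicate numbers 1 to 4 and black bars the difference of group means. The points of replicates 1 and 2 stay near 0 in most lists, and the fibroblast list has its widest point in replicate 3 (1.72), the pericyte list in replicate 4 (1.65).

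Of 26 cell cycle genes 25 were higher with apical S1P (median 0.16, 0 called). The medians within replicates 1 to 4 were 0.03, 0.06, 0.48 and 0.14, and in replicate 3 all 26 were higher. In replicates 1 and 2 of both groups 18 of 26 were higher (median 0.02), and without apical S1P replicates 3 and 4 alone all 26 were (median 0.25). Cdk1, the kinase that drives mitosis, was at 357, 392, 311 and 286 with vehicle and at 402, 427, 435 and 352 with apical S1P (0.27 ± 0.13). It was higher within all 4 numbers, and the groups overlapped because apical replicate 4 lay among the vehicle values. Pcna, the sliding clamp of replication, had 0.15 ± 0.08 and Mcm7, a subunit of the replicative helicase, 0.20 ± 0.11. The proliferation marker Mki67, described outside the rule for named genes, was at 1930, 1964, 618 and 752 with vehicle and at 1814, 2153, 867 and 968 with apical S1P. Its step between replicates 1 and 2 and replicates 3 and 4 was wider than any step between the groups. Not every member had such a step: Pcna was at 314, 344, 322 and 308 with vehicle.

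In protein synthesis and respiration genes the list medians were above 0 in each of replicates 1 to 4. All 75 tested nuclear genes of oxidative phosphorylation had higher means with apical S1P (median 0.14; 0.10, 0.10, 0.11 and 0.23 within replicates 1 to 4), and 75 of 77 cytosolic ribosomal proteins did (median 0.12; 0.12, 0.10, 0.04 and 0.22), with 0 called in either. In replicate 3, 69 of 75 and 55 of 77 were higher, and in replicates 1 and 2 of both groups 71 of 75 and 71 of 77. Without apical S1P replicates 3 and 4 alone, 42 of 75 (median 0.0045) and 55 of 77 (median 0.02) were higher, beside 6298 of 12249 over all genes. Ndufa6, an accessory subunit of respiratory complex I, was at 134, 137, 147 and 155 with vehicle and at 157, 166, 163 and 165 with apical S1P (0.19 ± 0.09, limma unadjusted p = 0.0441). Its groups were separate by 2 counts. Ndufb4, of the same complex, was at 17, 15, 15 and 14 with vehicle and at 16, 28, 28 and 25 with apical S1P (0.61 ± 0.24). Replicate 1 fell inside the vehicle range and the other 3 well above it. Rpl38, of the large ribosomal subunit, was at 62.8 ± 6.29 with vehicle and at 75.0 ± 7.35 with apical S1P (SD, n = 4 each).

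These are short genes, and the difference between the groups followed gene length over the whole transcriptome. The genes were split by exonic length into 10 classes of equal size. In the shortest class (up to 1785 bases) the median log2 difference was 0.11 and 77.5% of genes had a higher mean with apical S1P. It declined through each class to -0.06 in the longest (10007 bases or more), where 25.3% were higher. The shortest class had medians of 0.08, 0.08, 0.09 and 0.18 within replicates 1 to 4 and the longest -0.04, -0.03, -0.04 and -0.11, so the slope had 1 sign in every number and was steepest in replicate 4. Across 12243 genes the difference had a Pearson correlation of -0.231 and a Spearman correlation of -0.326 with log2 exonic length, a description of genes that share these 8 libraries and are not independent replicates. The separate genes followed it too, with a median exonic length of 2419 bases in the 74 higher ones and 5720 bases in the 88 lower ones, beside 4531 bases in genes whose groups overlapped.

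**Figure D5:**
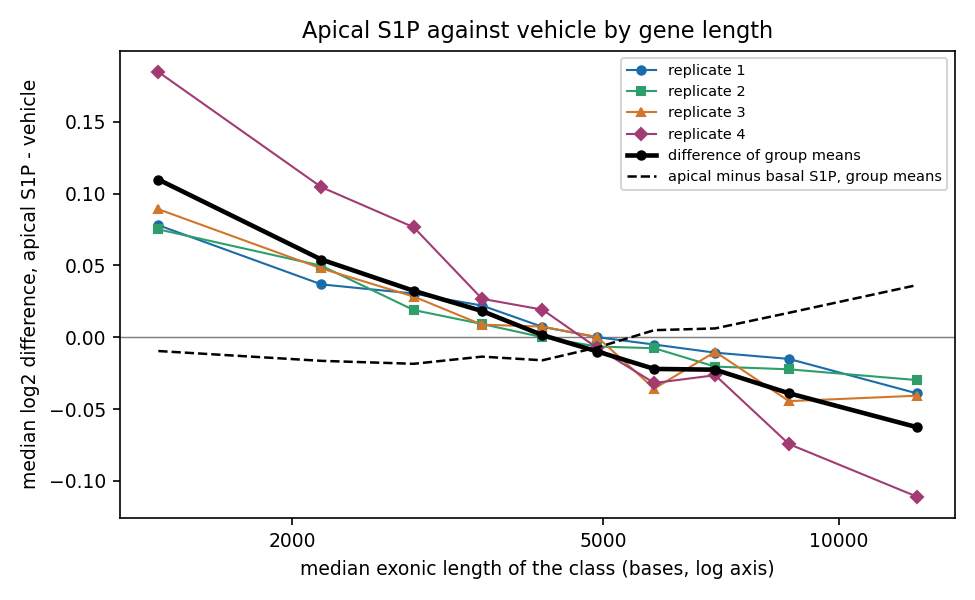
Median log2 difference (y axis) in 10 classes of the tested genes by exonic length in bases (x axis, log scale): apical S1P minus vehicle by replicate number (coloured) and for group means (thick black), and apical minus basal S1P (dashed). All 4 numbers slope down, from 0.11 in the shortest to -0.06 in the longest class for the group means, while the dashed line runs from -0.0096 to 0.04.

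Other treatments, which share the vehicle libraries, had the slope too. The shortest and longest classes had medians of 0.12 and -0.10 with basal S1P, 0.08 and -0.05 with the apical S1P4 agonist, and 0.03 and -0.002 with the basal agonist (both at 500 nM). Each apical library was shallower than the vehicle library of its number, at 4.96, 4.91, 4.35 and 4.20 against 5.54, 5.25, 4.73 and 4.57 M estimated reads. The shortest minus longest difference was 0.123, 0.128, 0.148 and 0.317 in replicates 1 to 4. Taken from the mean of the 20 wild-type libraries, it ran from -0.328 in the deepest library (5.54 M) to 0.478 in the shallowest (3.93 M). Basal S1P replicate 4 (4.83 M) was at -0.0597 and basal agonist replicate 4 (4.04 M) at -0.0681, beside -0.0667 in vehicle replicate 4. The part of depth or of RNA quality in this slope was not tested. With the length trend taken out of each library, 64 of 75 respiration genes (median 0.06) and 63 of 77 ribosomal genes (median 0.05) were still higher, beside 6435 of 12249 over all genes (median 0.0067), and 33 of 38 interferon genes became 36 of 38 lower.

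In the remaining lists no gene passed the threshold and the medians lay between -0.06 and 0.08. Of 22 BMP and TGF-beta genes 15 were higher (median 0.08). Smad7, an inhibitory SMAD, was at 357, 295, 238 and 207 with vehicle and at 332, 377, 432 and 347 with apical S1P (0.46 ± 0.23), and Bmp2, a ligand, at 214, 276, 379 and 349 with vehicle and at 232, 192, 147 and 241 with apical S1P (-0.57 ± 0.33). In both genes replicate 1 went against the other 3 numbers. Against basal S1P, Bmp2 differed by -1.10 ± 0.33 and Smad7 by 0.58 ± 0.23, neither past the threshold. Smad6, the other inhibitory SMAD, had 0.26 ± 0.13, with its highest value of 517 in apical replicate 3.

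Of 21 targets of YAP/TAZ and of MRTF/SRF, which report tension on the cytoskeleton, 20 were higher by a median of 0.08. Without apical S1P replicates 3 and 4, a comparison that also holds differences between replicate numbers, 5 of 21 were higher. In replicates 1 and 2 of both groups it was 14 of 21. The integrin subunit Itga5 had 0.09 ± 0.05 and the non-muscle myosin Myh9 0.08 ± 0.06. Of 22 cholesterol synthesis genes 16 were lower (median -0.06; 21 of 22 lower without apical S1P replicates 3 and 4, 16 of 22 in replicates 1 and 2 of both groups). Lss, lanosterol synthase, was at 266, 266, 314 and 323 with vehicle and at 211, 214, 270 and 216 with apical S1P (-0.36 ± 0.17, limma unadjusted p = 0.0481). It was lower within all 4 numbers, and only apical replicate 3 reached the vehicle range. Hmgcs1, which makes HMG-CoA, had separate groups at 788 to 923 and 690 to 775 (-0.15 ± 0.10).

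Of 17 genes of the Wnt pathway 9 were higher and of 14 Notch genes 7, with medians of 0.0023 and -0.0013. Znrf3, a ubiquitin ligase that removes Wnt receptors, had -0.28 ± 0.14 and the Notch ligand Jag1 0.09 ± 0.07. Basement membrane genes were higher in 9 of 16 cases and angiogenesis genes in 9 of 15, as in the collagen Col4a1 (0.10 ± 0.07) and the VEGF receptor Kdr (0.06 ± 0.05). Of 22 stress response genes 14 were higher, 3 without apical replicates 3 and 4 and 10 in replicates 1 and 2 of both groups. They include Psat1 of serine synthesis, at 381, 415, 437 and 425 with vehicle and at 394, 491, 559 and 481 with apical S1P (0.21 ± 0.10, limma unadjusted p = 0.0451). It was higher within all 4 numbers, by least in replicate 1, where the apical value lay inside the vehicle range. Of 19 hypoxia and glycolysis genes 15 were higher (median 0.07), including the glycolytic enzyme Eno1 (0.17 ± 0.13), and 4 of 19 were when apical S1P replicates 3 and 4 were left out, against 13 of 19 in replicates 1 and 2 of both groups.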

How the data were processed

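The table used held 18091 genes in 20 wild-type libraries. Its values are a signal per gene that the authors deposited as whole numbers: counts divided by 1 factor for each library and rounded, as read from regular steps in the values, which also gave the estimated reads. The reads were not recovered, so no count model was used, and the design's choice for normalized values was followed. Per the submitters' processing notes, FastQC, Trimmomatic 0.38, STAR 2.7.3a, featureCounts 1.6.5 (Subread), DESeq2 1.26.0 and build mm10 were used. How strand was set in counting, and whether duplicates were removed, was not given in the sources used here. In the 8 libraries the highest gene held 6171 to 7810 normalized counts, so abundant genes may be compressed and their differences understated.

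Log2(value + 1) of genes with a mean of at least 10 entered a limma model (limma 3.58.1 under R 4.3.3) of 5 group means with 20 libraries, a prior variance that depends on the mean, and Benjamini-Hochberg adjustment over all genes tested. The scripts were tested on simulated data. Exonic lengths are from the GENCODE M21 annotation of mm10, and coordinates are as deposited.

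The comparison, the 34 gene lists and the rule for named genes were chosen with earlier results of these data known. Named were the S1P receptors, up to 12 genes in each direction with separate groups and the smallest p, up to 4 members of each list with the smallest p, the 4 most abundant mural and fibroblast markers and the genes called by side. Mki67, Bst2 and Igtp were described outside this rule, as were the other genes with a printed site that it does not name. Correlations of the deviations of same-numbered vehicle and apical S1P libraries were 0.664, 0.612, 0.375 and 0.396, but apical S1P replicate 4 correlated best with vehicle replicate 3 (0.705). The main fit did not pair libraries by number, so its SEs and p-values hold the spread between numbers. The replicate block left the count against vehicle at 0.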

Additional observations from a re-analysis of the deposited data

Results flagged for a closer look

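In 18 of 182 groups of 4 examined (9.89%), 1 library stood far from the other 3. Chance gives about 1 in 20 in independent groups. The groups here share 8 libraries and most hold genes picked by their values, so that share is no measure for them. Of the 18 libraries that stood apart, 7 were apical S1P replicate 3 and 5 vehicle replicate 4. Apical S1P replicate 3 was the highest of its group in Acaa2 (225 normalized counts, next 205), Acta2 (936, next 742), Dpm3 (93, next 76), Lss (270, next 216), Smad6 (517, next 351), Spns2 (1156, next 920) and Tagln (829, next 623). Vehicle replicate 4 was the highest in Arsk (156, next 135), Hmgcs1 (923, next 797), Irf7 (196, next 142) and Klf2 (406, next 240), and the lowest in Acta2 (480, next 670). Vehicle replicate 3 was the lowest in Ptrh2 (130, next 153) and Znrf3 (135, next 175). Apical S1P replicate 4 was the lowest in Col1a1 (16, next 248) and the highest in Gm11478 (25, next 18). The oligodendrocyte marker sum was highest in replicate 2 of both groups, at 15 (next 7) with apical S1P and 11 (next 6) with vehicle.

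By side of treatment, Ackr4 differed by 1.41 ± 0.21 between apical and basal S1P (limma, SE on the log2 scale), Atoh8 by 1.15 ± 0.13 and Cpm by 0.48 ± 0.07, each higher on the apical side in 4 of 4 libraries.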

How the results depend on the processing

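Against vehicle, 0 genes passed under all 30 alternatives run, with 45 to 826 genes at an unadjusted p under 0.05. Against basal S1P the 3 genes became 83 with the replicate block (36.1% higher on the apical side, against 100% of the 3), 29 with the replicate as a random effect, 115 with the block and the length trend removed (33.9% higher; added after seeing the data), 7 with the block and both marker covariates, and 0 with the block on only the 8 libraries compared. The count was 5, 8 and 23 with the mural, the fibroblast or both marker covariates, and 1 without replicates 3 and 4 of all groups or with only the 8 libraries. With 1 library left out it was 1 to 3, and 1 without basal S1P replicate 1 or 3 or apical S1P replicate 2 or 3. Same-numbered apical and basal libraries correlated with 0.727, -0.345, 0.0269 and 0.195, and apical replicates 3 and 4 correlated best with basal replicates 2 (0.662) and 3 (0.633), so the numbers were not taken as pairs, although replicate 1 correlated best with its own.

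The smooth muscle median moved to 0.10 without replicates 3 and 4 of all groups and to 1.06 without apical S1P replicates 3 and 4. With 1 library left out it was 0.20 to 0.89, the pericyte median -0.21 to 0.86 and the fibroblast median 0.02 to 1.08.

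Over 81 genes and 2422 pairs of gene and setting, 2365 kept sign and call, 57 in 15 genes changed sign, and 0 gained a call. The cause of the sign changes was not tested. These counts do not measure stability. The 12 genes in each direction were picked for separate groups, so leaving out 1 library could not change their sign. Many others were picked for the smallest p of their list, and no gene was called in the main fit. With the mural covariate S1pr3 was -0.47, Cspg4 -0.10, Notch3 -0.33, Pdgfrb -0.26, Col3a1 -0.30 and Ackr4 -0.0038. With the fibroblast covariate S1pr3 was -0.0928, Col3a1 -0.0527 and Ackr4 -0.0096. With both covariates S1pr3 was -0.56, Cspg4 -0.20, Notch3 -0.39, Pdgfrb -0.34 and Col3a1 -0.10. With the replicate block and both covariates S1pr3 was -0.39, S1pr2 -0.10, S1pr4 -0.0491, Cspg4 -0.0446, Spns2 -0.0068, Myl9 -0.11, Notch3 -0.12, Pdgfrb -0.13, Col3a1 -0.15, Egr3 0.13 and Klf2 0.0172. Without replicates 3 and 4 of all groups S1pr3 was -0.33, S1pr2 -0.13, Cspg4 -0.0227, Notch3 -0.0907, Pdgfrb -0.10 and Btg2 0.0333. With the length trend removed, with or without the block, S1pr4 was -0.00011 and S1pr1 -0.0117. Without apical S1P replicates 3 and 4 S1pr2 was -0.22, S1pr4 -0.18, S1pr1 -0.12 and Fbln1 0.22.

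With 1 library left out S1pr1 lay between -0.0707 and 0.0848, S1pr2 between -0.0821 and 0.21, S1pr3 between -0.33 and 0.67, S1pr4 between -0.0629 and 0.19, Cspg4 between -0.0918 and 1.06, Notch3 between -0.28 and 0.93, Pdgfrb between -0.24 and 0.78, Col3a1 between -0.0263 and 1.29 and Ackr4 between -0.0825 and 0.26. Without apical S1P replicate 3, 50 genes had an unadjusted p under 0.05 against vehicle, and 352 without apical S1P replicate 1.

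An estimated 4.20 to 5.54 M reads for each library and values below about 20 counts, as in Acap1 or Gm45053, limit precision, and no interval from counting is given, since the reads were not recovered.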
